A study of Mus musculus with 16 samples.

Results

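The lemur tyrosine kinases are 3 genes, Lmtk2, Lmtk3 and Aatk (Lmtk1), and their members here were the probe sets of an exon array whose single gene symbol is one of the 3. There were 81 such probe sets, 25 for Lmtk2, 23 for Lmtk3 and 33 for Aatk, of 303629 probe sets with a single symbol, and all 3 genes were among the 14570 tested. The family was chosen by the lower gene level of Lmtk3 in brain without Nova1 and Nova2, so every member value of that brain comparison is given as a description with no test. The arrays measured total RNA of whole brain or spinal cord from CD1 mice, an outbred stock, at E18.5, shortly before birth. Each tissue had 4 arrays of wild type embryos and 4 of embryos that lacked both Nova genes (Nova1/2 dKO, double knockout), 16 arrays in all, each of a separate biological replicate per the design text. The alleles and litters are not described in the labels.

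Lemur kinases are anchored in membranes near their amino-terminal end and carry a kinase domain followed by a long carboxy-terminal tail. They were named as tyrosine kinases, but they act mainly on serine and threonine. In neurons they are known for steering endosomes and their cargo along axons and dendrites, and Aatk and Lmtk2 are themselves phosphorylated by the neuronal kinase Cdk5. Nova1 and Nova2 are neuronal RNA-binding proteins that control alternative splicing.

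RefSeq (build GRCm38.p6) gives Lmtk3 a pair of transcription starts, 1440 bases apart, and Lmtk2 a single one. These windows run from 250 bases before to 50 after each start and are shown because Lmtk3 and Lmtk2 are the members called lower in double knockout spinal cord at an adjusted p under 0.05 (Aatk was also lower there, but not called). Capitals mark the motif GGGCGG, searched on both strands with overlaps allowed, which 35.7% of all 32851 promoter windows of this length hold.
Lmtk3 first start, chr7:45783657-45783956, plus strand: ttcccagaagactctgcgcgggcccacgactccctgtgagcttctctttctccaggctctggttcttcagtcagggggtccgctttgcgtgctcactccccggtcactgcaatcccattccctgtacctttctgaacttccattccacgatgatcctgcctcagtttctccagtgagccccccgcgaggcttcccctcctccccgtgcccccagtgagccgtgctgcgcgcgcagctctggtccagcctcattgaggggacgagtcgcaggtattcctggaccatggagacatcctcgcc
Lmtk3 second start, chr7:45785097-45785396, plus strand: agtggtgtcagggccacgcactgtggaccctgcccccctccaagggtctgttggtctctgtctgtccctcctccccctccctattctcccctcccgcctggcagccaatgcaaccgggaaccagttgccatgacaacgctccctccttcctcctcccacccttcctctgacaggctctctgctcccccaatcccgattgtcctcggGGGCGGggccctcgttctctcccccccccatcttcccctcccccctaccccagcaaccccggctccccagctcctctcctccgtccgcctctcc
Lmtk2, chr5:144100111-144100410, plus strand: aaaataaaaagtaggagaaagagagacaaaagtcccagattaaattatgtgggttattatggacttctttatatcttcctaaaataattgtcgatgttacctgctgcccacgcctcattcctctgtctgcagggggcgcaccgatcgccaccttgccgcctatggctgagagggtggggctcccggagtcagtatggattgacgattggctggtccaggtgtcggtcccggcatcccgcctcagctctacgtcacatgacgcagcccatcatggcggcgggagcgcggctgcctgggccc
The second Lmtk3 window held the motif once and the other windows did not hold these letters. The windows had 17, 11 and 17 CpG pairs in this order, against a median of 7 over all windows. Which of the Lmtk3 starts was used was not measured here.

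Levels are log2(intensity + 16), a scale on which dim signals change less than their ratio. A probe set was used where its mean over the 16 arrays lay above 6.73, a floor set at the median of such means. Each gene's level is the median of its named probe sets above the floor. All 23 probe sets of Lmtk3, 23 of 25 of Lmtk2 and 31 of 33 of Aatk lay above it, and the lowest group mean of any of the 3 genes was 8.65. The levels of different genes are not compared, because probe sets differ in brightness.

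The arrays differed at the Nova genes as labelled, and some stood apart in other ways. Nova1 was at 10.27 ± 0.315 (SD, n = 4) in wild type but 5.24 ± 0.410 in dKO brain, and at 11.69 ± 0.175 against 6.38 ± 0.110 in spinal cord, below the floor in both knockout groups. Nova2 fell by 0.75 in brain and fell by 1.14 in cord and stayed above the floor; whether its probe sets lie in the deleted exons was not examined. Genes of the telencephalon scored 7.13 and 7.85 on the brain arrays of number 3 of each genotype, where the highest brain score was 9.87 and the spinal cord scores ran from 6.87 to 7.32. Skeletal muscle genes scored over 8 on 4 spinal cord arrays (wild type 1 and 4, double knockout 2 and 4), up to 10.47. Values without these arrays are given beside some of the results. Of the genotype differences in brain, only that of the Lmtk3 gene level is also given without both brain arrays of number 3. Median intensities ran from 72.3 to 82.9 in brain and from 99.5 to 116.2 in spinal cord.

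Lmtk3, which binds the endocytic adaptor AP-2 and acts in the trafficking of NMDA receptors, was the member with the largest differences between genotypes. In wild type brain its gene level was 9.59, 9.69, 9.77 and 9.63 on arrays 1 to 4. In double knockout brain it was 8.56, 8.48, 8.81 and 8.75. All 4 knockout brains lay below all 4 wild type brains. The difference of the means was -1.02 on the log2 scale, 2.03-fold lower, and only 6 of 14570 genes had a larger fall in brain. Across the genome 0.268% of genes were called in this comparison (0.192% lower, 0.0755% higher) at an adjusted p of 0.05. Groups did not overlap for 4% of genes, with dKO lower for 1.83%. Without both brain arrays of number 3 the difference was -1.04. By Xist and Y-linked genes 4 of 4 dKO brains were female, as were 2 of 4 from wild type, and with a sex term the Lmtk3 difference was -1.05.

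The spinal cord arrays were not used for that choice, although their results were known when it was made, and limma's fit shares its estimate of the spread over all 16 arrays. The wild type cords had Lmtk3 levels of 9.78, 9.38, 9.87 and 9.44, and the double knockout cords 8.71, 8.92, 9.07 and 8.84. Again the groups did not overlap, as for 11.5% of all genes in cord, 7.62% with double knockout lower. Lmtk3 changed by -0.73 (SE 0.119, 1.66-fold, adjusted p = 0.000978, limma), with a 95% confidence interval from -0.98 to -0.48. Of all genes 5.63% were called in cord, 4.55% as lower and 1.08% as higher, with an all-gene median of -0.03. Beside Lmtk3 1 other member, Lmtk2, was called lower, so 2 of 3 were. Without the 4 arrays rich in muscle genes the difference was -0.74, with an adjusted p of 0.0759 over the 4 cord arrays left. The order of the 4 group means was wild type brain at 9.67 ± 0.0793, wild type cord at 9.62 ± 0.243, double knockout cord at 8.89 ± 0.152 and double knockout brain at 8.65 ± 0.158. The first pair overlapped and so did the last pair. The brain and cord differences share no array, and whether they differ from each other was not tested.

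**Figure D1:**
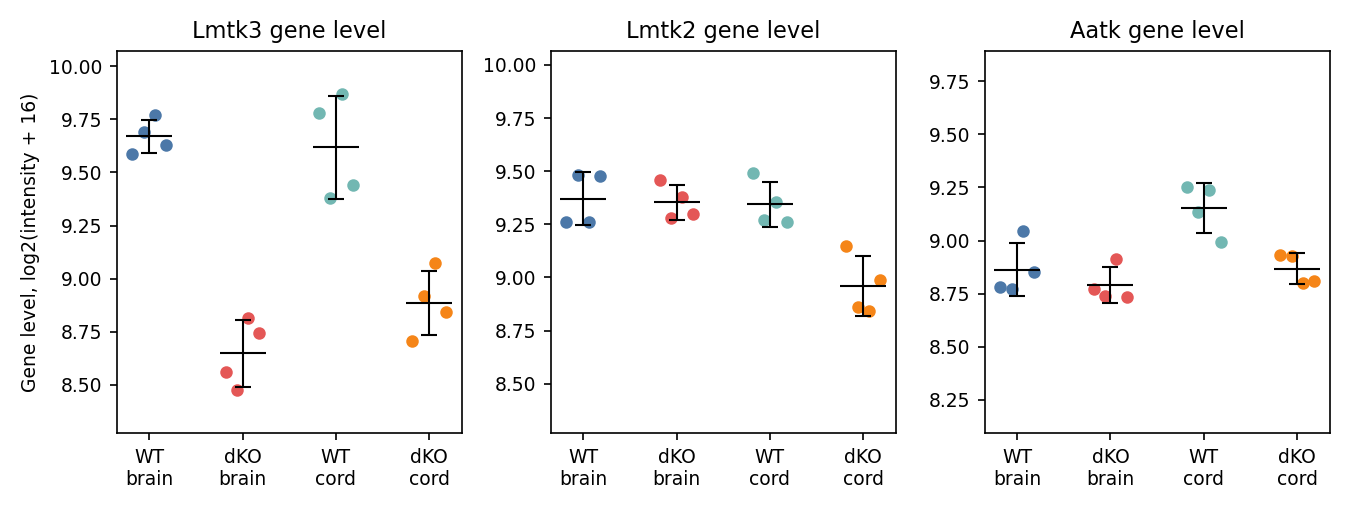
Gene levels (log2(intensity + 16), median over the probe sets of a gene) of Lmtk3, Lmtk2 and Aatk on each array in wild type (WT) and double knockout (dKO) brain and spinal cord. Points are arrays in the order of their numbers, lines the mean and bars the SD (n = 4); each panel spans the same range of log2 units. Lmtk3 was lower in knockouts of both tissues, while Lmtk2 (8.84 to 9.15) and Aatk (8.80 to 8.93) lay below wild type without overlap in cord only. In cord 7.62% of all genes did so.

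The fall of Lmtk3 was seen in nearly all of its probe sets. In brain all 23 probe sets were lower in double knockout, 20 of them with no overlap between genotypes, against 1.79% of all 206355 probe sets above the floor (3.68% in either direction). The brain count is a description only. The family was chosen by the brain level of Lmtk3, and that level is the median of these same probe sets. In cord 22 of 23 were lower, 18 without overlap, against 6.03% (9.78% in either direction). The other, 4638849, had both cord group means below the floor. The genotypes did not overlap in both tissues for 16 probe sets. Probe set 5531814 is an example of the difference in linear intensity. It read 1159, 1139, 1309 and 1037 in wild type brain and 361.3, 340, 476.3 and 456 in double knockout brain. In cord it read 1502, 1183, 1691 and 1243 in wild type and 564.3, 559, 722.2 and 596.8 in double knockout. The lowest wild type array was above the highest knockout array in each tissue. Probe set 5531814 changed more (-1.48 in brain, -1.17 in cord) than the gene level (-1.02 and -0.73). It also changed more than the median Lmtk3 probe set (-1.30 and -0.89).

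The probe sets of Lmtk3 did not fall by equal amounts. In brain the changes ran from -1.74 at probe set 4487138 to -0.30 at 4638849, with a median of -1.30, and 16 of them were beyond -1. The gene level thus changed less than its middle probe set. With the mean over probe sets as gene level the brain difference was -1.20, and with a floor at the 75th percentile -1.29. In cord the changes ran from -1.29 at 4612998 to 0.15 at 4638849, whose cord group means both lay below the floor. The median cord change was -0.89, and 9 were beyond -1. For 20 of the 23 probe sets the fall was larger in brain than in cord. Pearson's r of the changes in the 2 tissues was 0.66 and Spearman's rho 0.53 over the 23 probe sets. These points share the probes and, within a tissue, the arrays.

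**Figure D2:**
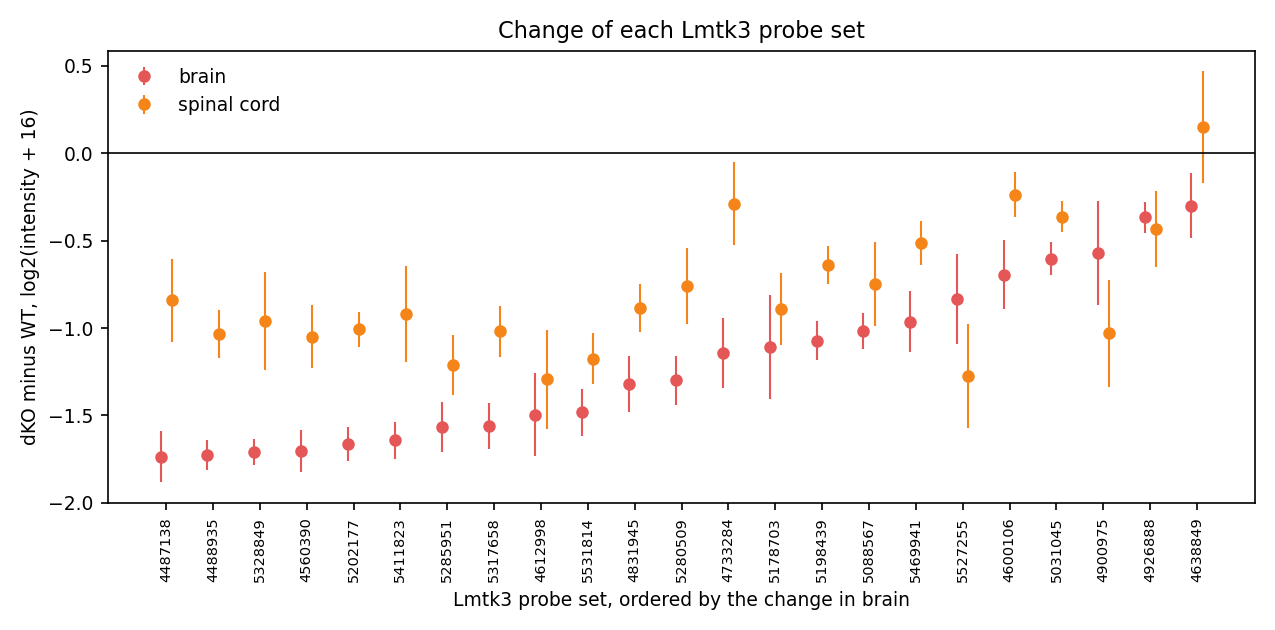
Difference between double knockout and wild type means (log2(intensity + 16)) of each Lmtk3 probe set in brain and spinal cord, ordered by the change in brain. Bars are the standard error of the difference from the SDs of 4 arrays per group. All brain values lie below 0, from -1.74 to -0.30. In cord 22 of 23 do, and the other, 4638849, had both cord group means below the floor.

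To see whether a probe set changed unlike its gene, the gene's level was subtracted from it on each array, in log2 units, which gives an exon index. Of the 77 probe sets of the family 1 was called in double knockout cord, Lmtk3 probe set 5531814, as lower, against 0.388% of 193126 probe sets (0.153% lower, 0.235% higher). Its index was 0.79, 0.85, 0.87 and 0.86 in wild type cord and 0.47, 0.25, 0.46 and 0.42 in double knockout cord. It fell by 0.44 (SE 0.0794, adjusted p = 0.0226, limma), and the genotypes did not overlap. That call ended with the cord arrays alone (adjusted p = 0.158), without wild type cord 3 (0.0523), without double knockout cord 2 (0.088), 3 (0.0507) or 4 (0.0695), with the replicate block (0.106), without a floor (0.0574) and without the arrays rich in muscle genes (0.296). In brain the same index differed by -0.46, as a description, where 0.15% of all probe sets were called (0.0818% lower, 0.0683% higher). The Lmtk3 gene level changed less than its median probe set in brain (-1.02 against -1.30) and in cord (-0.73 against -0.89). A typical Lmtk3 probe set thus also has a negative index difference in each tissue.

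Other Lmtk3 indices are given by their values. In brain the largest fall was -0.72, at 4487138, and the largest rise 0.72, at 4638849. In cord the extremes were -0.56 at 4612998 and 0.88 at 4638849 (adjusted p = 0.259 and 0.17). Probe set 4638849 is the dimmest of the gene, with a mean of 6.91, and both of its cord group means lay below the floor. Its wild type cord intensities were 42.9, 113.7, 115.4 and 60.2. Positions of the probe sets in the gene were not used here.

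Lmtk2, which binds myosin VI and protein phosphatase 1, was nearly level between genotypes in brain and lower in double knockout cord. Its brain levels were 9.26, 9.48, 9.26 and 9.48 in wild type and 9.46, 9.28, 9.38 and 9.30 in double knockout, which overlap, with a difference of -0.02. The wild type cords were at 9.49, 9.27, 9.36 and 9.26 and the double knockout cords at 9.15, 8.86, 8.84 and 8.99, with no overlap. Of all genes 7.62% were lower in double knockout cord without overlap. Lmtk2 fell in cord by 0.38 on the log2 scale (SE 0.0975, 1.31-fold, adjusted p = 0.024, limma; 95% confidence interval from -0.59 to -0.18). Of its 23 probe sets 22 were lower in cord, 6 without overlap, and 13 in brain, 1 without overlap, beside 6.03% and 1.79% of all probe sets that were lower without overlap. Wild type brain (9.37 ± 0.126), double knockout brain (9.35 ± 0.0821) and wild type cord (9.34 ± 0.106) overlapped, and only double knockout cord (8.96 ± 0.142) lay apart. The difference between the tissues in this response was not tested.

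The call of Lmtk2 lay near the threshold. It ended without wild type cord 1 (adjusted p = 0.0644) or 3 (0.0574), without double knockout cord 2 (0.0905), 3 (0.088) or 4 (0.0595), with the cord arrays alone (0.0633), with no floor (0.0875) and without the 4 arrays rich in muscle genes (difference -0.32, adjusted p = 0.348). Its direction was the same in each of these.

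The Lmtk2 probe set with the largest change was 5355315. In cord it read 421.3, 326.8, 393.2 and 267.7 in wild type and 363.7, 197, 24.2 and 60.6 in double knockout. Of the knockout arrays 1 lay within the wild type range and 3 below it. The difference was -1.53 at the probe set and -1.15 for the exon index (SE 0.49, adjusted p = 0.372), which did not pass. The largest index rise in cord was 0.42, at 4942038 (adjusted p = 0.218). In brain the index extremes were -0.52 at 5355315 and 0.14 at 4718206. The first was -0.15 without double knockout brain 2, and the second is of a probe set with both brain group means below the floor.

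Aatk, a kinase of recycling endosomes that was first found in dying myeloid cells, did not pass in cord. Its levels were 8.78, 8.77, 9.04 and 8.85 in wild type brain and 8.77, 8.74, 8.91 and 8.73 in double knockout brain, which overlap, with a difference of -0.07. In cord they were 9.25, 9.14, 9.24 and 8.99 in wild type and 8.93, 8.93, 8.80 and 8.81 in double knockout. The cord groups did not overlap, as for 11.5% of all genes, 7.62% with double knockout lower. The difference was -0.29 (SE 0.0926, adjusted p = 0.0768, limma), with a 95% confidence interval from -0.48 to -0.09. It passed without wild type cord 4 (0.0308), after quantile normalization (0.0342), with arrays centred on their medians (0.0179) and without both brain arrays of number 3 (0.0483). Without the 4 arrays rich in muscle genes the difference was -0.32, with an adjusted p of 0.307. Of its 31 probe sets 28 were lower in cord, 7 without overlap, and 22 in brain, 1 without overlap, beside the same 6.03% and 1.79%. The changes ran from -0.49 to 0.10 in cord and from -0.23 to 0.23 in brain, a narrower range than that of Lmtk3. Its index extremes were -0.20 at 5300187 and 0.39 at 4996700 in cord (adjusted p = 0.473 and 0.491), and -0.16 at 4406140 and 0.30 at 5167001 in brain.

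**Figure D3:**
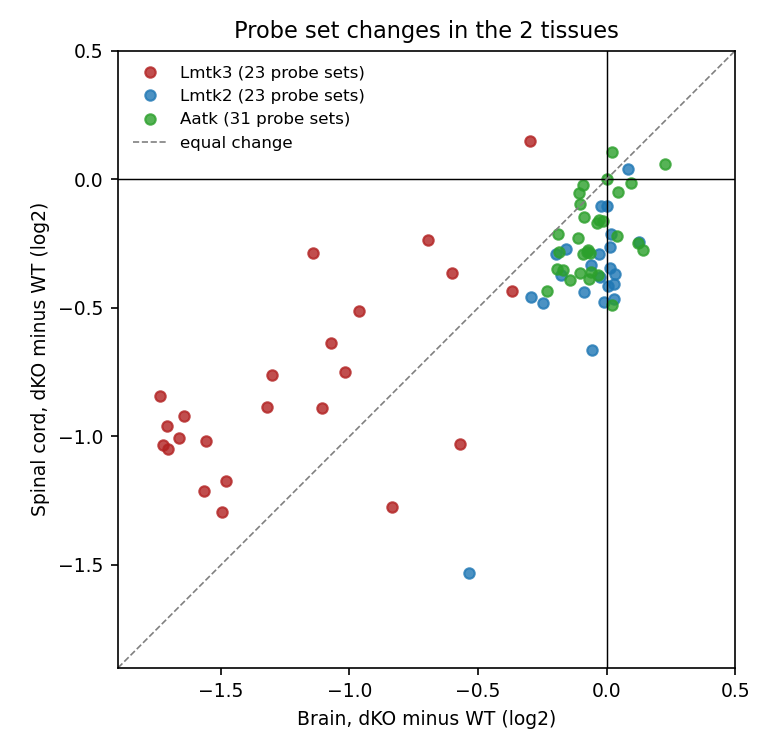
Difference between double knockout and wild type of every probe set above the floor, brain on the x axis and spinal cord on the y axis (log2), for Lmtk3 (23 probe sets), Lmtk2 (23) and Aatk (31); the dashed line marks equal change. Lmtk3 lies far to the left, with a brain median of -1.30, while Lmtk2 and Aatk lie near 0 in brain and mostly below 0 in cord, with medians of -0.37 and -0.25.

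The 4 probe sets of Lmtk2 and Aatk below the floor were left out of the gene levels. Aatk probe set 5282292 lay just below it, at 6.72, and changed by 0.21 in brain and -0.72 in cord. Aatk 4823184 and Lmtk2 5236425 and 5420360 had means of 5.85, 5.67 and 4.37. The dimmest probe sets just above the floor were Aatk 4620364 at 6.82 and Lmtk2 4718206 at 6.89.

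Markers of several cell types moved in cord beside the kinases. Of 6 astrocyte markers tested 5 were called lower in double knockout cord (median change -0.57), as were 3 of 6 of the oligodendrocyte lineage (-0.38), 3 of 6 of microglia (-0.46), 1 of 2 erythroid markers (-0.62), 1 of 8 of skeletal muscle (-0.30) and 1 of 7 of neurons (-0.08). None of these was called higher, and 4.55% of all genes were called lower. Without the 4 arrays rich in muscle genes 1 marker of the oligodendrocyte lineage and 1 of microglia were called, with medians of -0.63 for astrocytes, -0.45 for the oligodendrocyte lineage, -0.44 for microglia, -0.61 for erythroid cells, -0.05 for muscle and 0.01 for neurons. Each score is the mean level of a list. Astrocyte scores of wild type cords lay between 9.97 and 10.41, and those of dKO cords between 9.52 and 9.88. Neuron scores lay between 10.77 and 11.04 and between 10.60 and 10.93, which overlap. Oligodendrocyte scores lay at 8.47 to 8.80 and 8.16 to 8.30, and microglia scores at 7.87 to 8.39 and 7.41 to 7.77. No marker list had a member called in brain. Median brain changes ran from -0.11 to 0.13, apart from the spinal cord list (Hox genes) at 0.52. Its brain scores were 6.09 to 7.20 in wild type and 7.03 to 7.37 in dKO, which overlap. Of its 7 members 5 lay below the floor in wild type brain and 3 in dKO brain. The part of any of these markers in the brain or cord values of Lmtk3, Lmtk2 and Aatk was not tested. In such tissue samples fewer cells of a type cannot be told apart from less RNA per cell.

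Between tissues, averaged over both genotypes, the members stood near or above the median of all genes. In these values 75.7% of all genes were called (51.5% lower, 24.2% higher) and the all-gene median was -0.21 (cord minus brain), so a call says little by itself. By limma Aatk was higher in cord by 0.18 (SE 0.0655, adjusted p = 0.0156), Lmtk2 differed by -0.21 (SE 0.0689, adjusted p = 0.00988), and Lmtk3 at 0.09 did not pass (adjusted p = 0.323, 95% confidence interval from -0.08 to 0.27). Without the 4 cord arrays rich in muscle genes these were 0.20, -0.21 and 0.0987 (adjusted p = 0.0356, 0.0412 and 0.423), and without both brain arrays of number 3 they were 0.24, -0.22 and 0.14 (adjusted p = 0.00319, 0.0112 and 0.168). The direction depends on scaling. With each array centred on its median the values were -0.22 for Aatk, -0.61 for Lmtk2 and -0.31 for Lmtk3, against an all-gene median of -0.61. Relative to the all-gene median Aatk stood at 0.39, Lmtk3 at 0.30 and Lmtk2 at -0.00401. Centring shifts all genes of an array alike, so these relative values are the same under both scalings by construction. After quantile normalization these were 0.49, 0.44 and 0.16. The averaged value of Lmtk3 includes the double knockout brains, by whose low level the family was chosen. In wild type alone cord minus brain was 0.29 for Aatk, -0.05 for Lmtk3 and -0.03 for Lmtk2, beside -0.16 for the median of all genes.

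Probe sets within each gene also differed between tissues. Of the 77 indices 27 were called between cord and brain, 12 higher and 15 lower in cord, or 35.1%, near the 41% of all probe sets (18.6% lower, 22.4% higher). Of these, 2 are of probe sets that lay below the floor in both groups of the tissue where they were lower, Lmtk2 4718206 in brain and Lmtk3 4638849 in cord. Such a probe set passed the floor only through the other tissue, so the values of these are descriptions. Lmtk2 4718206 stood 1.23 higher in cord, with brain intensities of 44.5 to 88.5 and cord intensities of 95.1 to 316. Of the other 75 indices 25 were called, 11 higher and 14 lower in cord, or 33.3%. Both the 27 and the 25 include Lmtk3 indices, whose averages hold the double knockout brains by which the family was chosen. The largest of the 25 was Aatk 5388800, at -0.96 (SE 0.125, adjusted p = 2.66e-05, limma). The Aatk index ran from -0.57 to 0.14 in brain and from -1.61 to -0.71 in cord, with no overlap. Its intensities were 310.9 to 514.4 in brain and 151.1 to 353.1 in cord, which overlap.

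Lmtk3 had 10 of its 23 indices called between tissues, or 43.5%, 7 higher and 3 lower in cord. Over all probe sets the share was 41% (22.4% higher, 18.6% lower). Of the Lmtk3 probe sets named by the smallest adjusted p, 4488935 (0.44), 5531814 (0.32), 4733284 (0.56) and 5285951 (0.34) were higher in cord. Lower were 4487138 (-0.55) and 4638849 (-0.68), the latter below the floor in cord. The 10 Lmtk3 calls are descriptions, because these averages include the double knockout brains, by whose low Lmtk3 level the family was chosen. In wild type alone the named indices were, in this order, 0.24, 0.31, 0.28, 0.30, -0.85 and -0.75. Lmtk2 had 6 of 23 called, or 26.1%. Of these, 4482268 (-0.31), 4365359 (-0.24) and 4819764 (-0.28) were lower and 4521309 (0.48) and 5611999 (0.18) higher, beside 4718206. The counts of Lmtk3 and Lmtk2 include 4638849 and 4718206, whose values are descriptions. Aatk had 11 of 31 called, or 35.5%, 9 of them lower. Among the 11 were 4741307 (-0.50), 4344703 (-0.28) and 5451533 (-0.28), lower, and 4886746 (0.54) and 4864771 (0.31), higher.

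**Figure D4:**
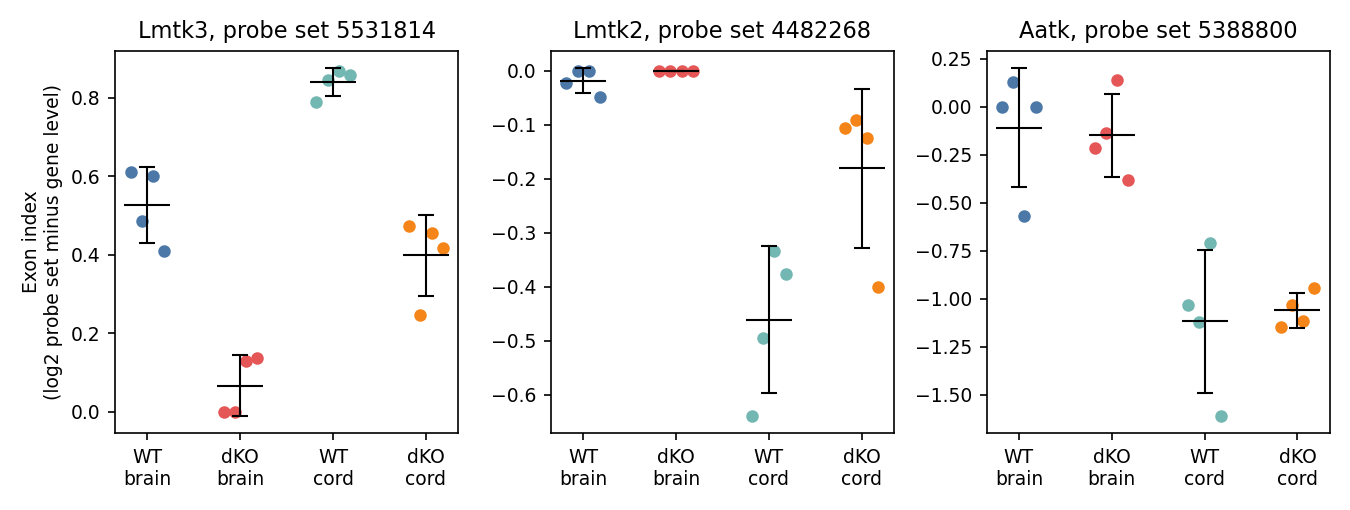
Exon index (log2 probe set value minus gene level on the same array) of Lmtk3 probe set 5531814, Lmtk2 4482268 and Aatk 5388800 on each array in wild type (WT) and double knockout (dKO) brain and spinal cord; lines and bars are mean and SD (n = 4). The Lmtk3 index is lower in knockouts of both tissues, while the others are lower in cord than in brain, by -0.31 and -0.96 over both genotypes. A value of 0 marks an array on which the probe set is itself the median of its gene.

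The genes whose levels followed Lmtk3 most closely were found by the root mean square difference of mean-centred levels over the 16 arrays, as a description. They were Mtap2, whose protein MAP2 binds microtubules in dendrites (0.159), the anion exchanger gene Slc4a3 (0.180), Ahi1, a gene of the primary cilium (0.201), the protein kinase C gene Prkcb (0.214) and the calcium channel subunit gene Cacna2d3 (0.242). The median over all genes was 0.545. Between genotypes Slc4a3 differed by -0.89 in brain and -0.72 in cord, and Prkcb by -0.57 and -0.55. For Lmtk2 the nearest were Fxyd6 (0.0813), Agk, Mta3, Vstm2b and Rab27a, a Rab of secretory vesicles (0.0948). For Aatk they were Mfhas1 (0.0794), Rap1gap, which switches Rap proteins off, Acsl6, Angel1 and Sorcs2 (0.0832). The levels of Lmtk2 and Aatk spanned only 0.65 and 0.52 over all arrays, so that many genes lie near them.

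Lmtk3 lies on the same chromosome as Nova2, with 348 tested genes between them in RefSeq gene order, while Lmtk2 and Aatk lie on other chromosomes than Nova1 and Nova2. Of those 348 genes 2 were called in brain and 21 in cord, 0.575% and 6.03%, beside 0.268% and 5.63% of all genes. None of the 5 tested genes to either side of Lmtk3 was called in either tissue by limma, with changes from -0.23 to 0.23 in brain and from -0.40 to 0.16 in cord. Its nearest tested neighbours were the sulfotransferase gene Sult2b1 at 0.23 and -0.34 and the exchange factor gene Cyth2 at 0.19 and 0.16. The largest changes among the 10 were those of the ribosome assembly gene Grwd1 in cord (-0.40) and Sult2b1 in brain.

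Of 29 genes listed as partners of lemur kinases, 27 were tested. The list holds binders, substrates and regulators, and also genes that only share a pathway with these kinases. In double knockout cord 3 were called lower and none higher, or 11.1%, beside 5.63% of all genes called and 4.55% called lower, with a median of -0.06 beside -0.03 for all genes. The fallen genes were Grin1, the common subunit of NMDA receptors (-0.67, SE 0.116, adjusted p = 0.00175), Slc12a5, the neuronal chloride exporter KCC2 (-0.66, SE 0.121, adjusted p = 0.00267), and Klc2, a kinesin light chain (-0.49, SE 0.0928, adjusted p = 0.00367). The level of Grin1 was 10.27 in wild type and 9.60 in dKO cord and that of Klc2 9.43 and 8.95. None of the 3 overlapped between the genotypes, where 7.62% of all genes were lower in dKO cord without overlap. Without the 4 arrays rich in muscle genes their values were -0.66, -0.59 and -0.45, and their adjusted p 0.0759, 0.164 and 0.115. In brain 0 of the 27 were called by limma, beside 0.268% of all genes. Grin1, Slc12a5 and Klc2 were at -0.29, -0.30 and -0.14 there.

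The other partners did not pass in cord. Cdk5 was at -0.22 and its activators Cdk5r1 at 0.10 and Cdk5r2 at -0.28. The catalytic subunits of protein phosphatase 1 were at -0.19 (Ppp1ca), 0.01 (Ppp1cb) and 0.23 (Ppp1cc), and its inhibitor Ppp1r2 at -0.10. Klc1, the other kinesin light chain on the list, was at 0.30 (adjusted p = 0.0905, limma), opposite in sign to Klc2. Its genotypes did not overlap, as for 11.5% of all genes in either direction. Myo6 was at -0.25, Gsk3b at -0.06 and Smad2 at 0.23. On the recycling endosome side Rab11a was at -0.05, Rab11b at -0.15 and the Rab11 GTPase activator gene Tbc1d9b at -0.26. The AP-2 subunit genes Ap2a1, Ap2a2, Ap2b1 and Ap2s1 lay between -0.14 and 0.16, and Grin2b at -0.05. Slc12a2, the chloride importer, was at 0.11 and its regulating kinase Stk39 at -0.24. Between tissues 20 of the 27 were called, 17 lower and 3 higher in cord, or 74.1%, beside 75.7% of all genes.

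**Figure D5:**
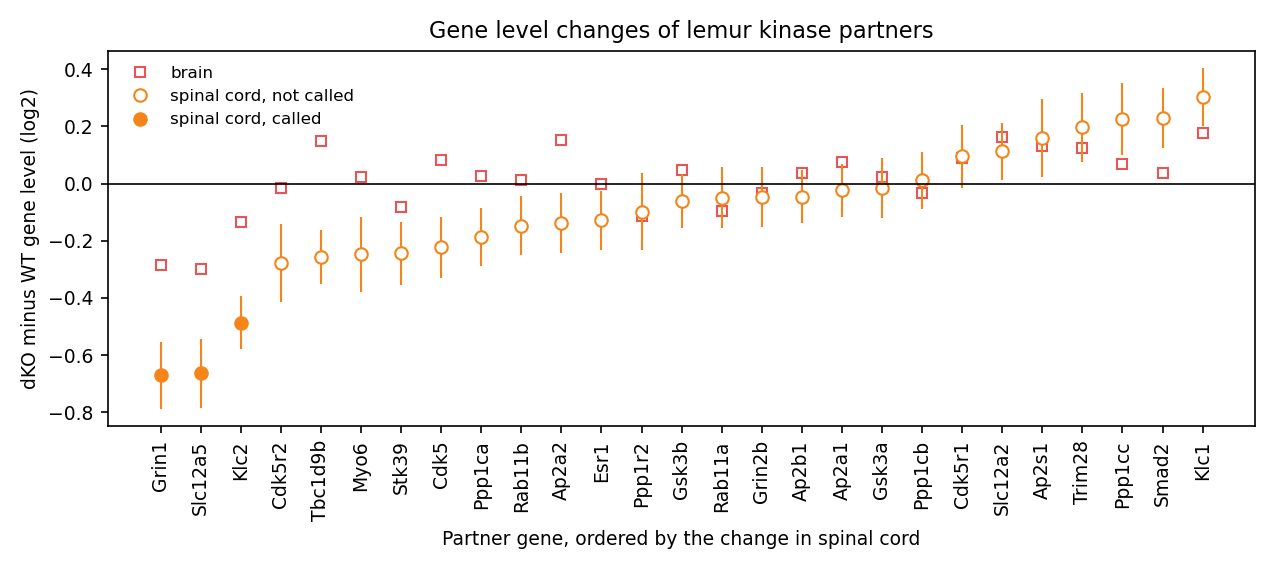
Difference in gene level between double knockout and wild type (log2) for the 27 partner genes tested, in spinal cord (circles, with the SE of limma's fit; filled where the adjusted p is under 0.05) and in brain (squares, no error drawn). Grin1, Slc12a5 and Klc2, at -0.67, -0.66 and -0.49, are the filled circles.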

How the data were processed

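The authors deposited 1 linear intensity per probe set and array. The submitters' processing notes name Affymetrix Power Tools, PLIER and mm8, without versions or settings. Gene symbols came from the platform annotation, and 5892 probe sets with several symbols were left out. Log2 values were taken with a pseudocount of 16. Gene levels needed at least 3 probe sets above the floor (14570 genes) and exon indices at least 5 (193126 probe sets of 12340 genes). limma 3.58.1 (R 4.3.3) fitted the 4 groups together, with Benjamini-Hochberg adjustment over all features and calls at 0.05. The fitting code was tested on simulated data. The number of arrays limits the precision. Groups came from sample titles. Same-numbered brains deviated together (correlations of 0.212 to 0.407 over genes in 4 of 4 pairs), so their numbers pair them here, though the labels name no pairing. Members and lists were chosen with earlier results of these data known. Named genes were the members, Nova1 and Nova2, the 5 nearest genes per member, called partners and neighbours (else the largest), and probe sets called (at most 6 per gene) or extreme. Alternatives were other pseudocounts, floors, means, scalings, a sex term, a replicate block and leaving out arrays.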

Additional observations from a re-analysis of the deposited data

Results flagged for a closer look

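Arrays were set against the rest of their group of 4 for the 3 gene levels and the 25 named exon indices, 112 groups in all, and 6 groups held an array far from the others. Chance gives about 1 in 20. No gene level was among them. For Lmtk2 these were probe set 5355315 in double knockout brain 2, at -2.65 against -1.33 to -1.08, and 4482268 in double knockout cord 4, at -0.4 against -0.124 to -0.0915. Probe set 4482268 in double knockout brain 3, at 0.000682 against 0 on the others, is on those arrays itself the median that sets the gene level. For Aatk they were 4886746 in double knockout cord 3 (0.4 against 0.000654 to 0.0597), 5451533 in wild type cord 1 (-0.268 against -0.146 to -0.128) and 4406140 in wild type brain 2 (0.553 against 0.237 to 0.285). No probe set was separated in opposite directions in the 2 tissues.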

How the results depend on the processing

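Each array was left out in turn in 16 fits. The causes of the changes below were not tested. The fall of Lmtk3 in cord ran from -0.81 to -0.65 in these fits and stayed called in them (adjusted p up to 0.00565), and its brain difference from -1.08 to -0.96. Lmtk2 in cord ran from -0.45 to -0.34, Aatk in cord from -0.34 to -0.25, members called lower in cord from 1 to 3, and cord exon index calls from 0 to 1. The index of 5531814 ran from -0.47 to -0.39.

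Without a floor Lmtk2 in cord was -0.35 and Aatk between tissues 0.13, with 1 member lower in cord, 0 higher between tissues and 0 exon index calls in cord. With means over probe sets Aatk between tissues was 0.0802 (0 members higher), Lmtk3 in brain -1.20, and 1 partner was higher in cord. With the floor at the 75th percentile Lmtk3 was -1.29 in brain and 0.26 between tissues (2 members higher). After quantile normalization Aatk in cord was -0.29, Lmtk2 between tissues -0.0557 and Lmtk3 0.23, with 2 members higher, 0 lower and 2 partners higher in cord. With arrays centred on their median Aatk in cord was -0.33, and between tissues Aatk was -0.22 and Lmtk3 -0.31, both reversed, with 0 members higher and 3 lower. With the cord arrays alone Lmtk2 was -0.38, with 1 member called lower and 0 index calls; with a pseudocount of 64 there were 2 index calls.

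The next settings were added after seeing the data. Without the 4 cord arrays rich in muscle genes Lmtk3 was -0.74, Lmtk2 -0.32, 0 members, 0 partners and 0 index calls remained in cord, and 17 index calls between tissues. Without both brain arrays of number 3 Aatk in cord was -0.29 (called) and 1 partner was higher. All genes called in cord ranged from 100 to 1620.

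In cord same-numbered arrays did not deviate together (correlations of -0.12 to -0.003), so the replicate block pairs only numbers there. With the replicate block 0 member exon indices were called in cord, Lmtk3 had an adjusted p of 0.00148 and Lmtk2 of 0.028, and no other member or partner count changed its call.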
